A study of Homo sapiens and Mus musculus with 20 samples.

Results

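The 2273 chromatin regions described here carried histone H3 lysine 27 acetylation (H3K27ac) in ARP1 cells with wild-type KDM6A and in the KDM6A knockout, and had no listed H3K27ac region in cells whose KDM6A carries a JmjD-dead allele. Members were chosen by these 3 H3K27ac lists, so their H3K27ac values are a description. They were taken from the 69127 H3K27ac regions of the WT library, of which 43236 had a −log10 q of at least 5, a length under 5000 bp and a place on chromosomes 1 to 22 or X. A tested region became a member when it shared no base with any region of the JmjD-dead list and at least 1 bp with a region of the KO list. Members made up 5.26% of the regions tested. A further 2427 tested regions were absent from both mutant lists, so 10.9% of tested regions had no JmjD-dead region. The opposite pattern, a JmjD-dead region and no KO region, was found at 3819 (8.83%), and 34717 tested regions were kept in both mutants.

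ARP1 is a human multiple myeloma line, a cancer of plasma cells. It was profiled as WT, as KDM6A knock out (KO) and with a genotype labelled JmjD-dead, whose library titles name the allele H1146E. All of these genotypes have lists for H3K27ac, trimethylated lysine 27 (H3K27me3) and input DNA, and WT and KO also for monomethylated lysine 4 (H3K4me1). KDM6A antibody lists exist for WT, KO and KARPAS, a second myeloma line with WT KDM6A. HA antibody lists exist for WT and for a line with HA-tagged in its title and knock out as its genotype. Each group was 1 library of 1 line, so clone and genotype cannot be told apart and no difference has a replicate check. Intervals of 95% on shares are exact Clopper-Pearson for members and normal approximations for weighted shares. They cover counting error only, and neighbouring regions are not independent. The H3K27ac libraries held 30.8 M (WT), 25.6 M (KO) and 31.2 M (JmjD-dead) fragments after the authors' filtering. The lowest fragment pileup at a listed summit was 7, 6 and 7 in the same order. "No region" therefore means that no region was called, which is not the same as an absence of acetylation.

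H3K27ac is deposited by the acetyltransferases EP300 and CREBBP and marks active enhancers and promoters. The same lysine can instead be trimethylated by Polycomb, through EZH2. KDM6A, also called UTX, removes that methylation through its JmjC domain, and it is also a subunit of the KMT2C and KMT2D complexes, which place H3K4me1 at enhancers. A knockout removes the whole protein, while a catalytically dead allele is designed to leave the protein without its demethylase activity.

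Promoters were rare among the members, yet they included genes of the interferon response, and 5 of those promoters, picked after all were searched, are printed here because they share a sequence element. The windows run from 250 bases before to 50 bases after the gene start, 5′ to 3′ along the gene, and come from RefSeq (GRCh38.p14). Capitals mark the core of the interferon response element, which is GAAA, any 2 bases and GAAA again, on either strand.
TRIM5 (chr11:5685025-5685324, minus strand): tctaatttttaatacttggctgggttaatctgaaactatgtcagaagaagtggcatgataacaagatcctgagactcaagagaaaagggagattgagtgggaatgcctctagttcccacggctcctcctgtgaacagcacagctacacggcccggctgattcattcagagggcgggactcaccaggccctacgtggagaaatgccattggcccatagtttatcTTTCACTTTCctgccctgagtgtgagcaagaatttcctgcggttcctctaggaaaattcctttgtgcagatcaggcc
HERC5 (chr4:88456869-88457168, plus strand): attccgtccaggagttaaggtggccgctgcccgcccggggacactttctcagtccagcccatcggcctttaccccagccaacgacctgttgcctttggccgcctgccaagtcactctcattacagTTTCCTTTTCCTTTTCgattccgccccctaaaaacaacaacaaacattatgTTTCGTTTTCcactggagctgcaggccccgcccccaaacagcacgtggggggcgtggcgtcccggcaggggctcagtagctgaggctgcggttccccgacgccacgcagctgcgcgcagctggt
PARP14 (chr3:122680589-122680888, plus strand): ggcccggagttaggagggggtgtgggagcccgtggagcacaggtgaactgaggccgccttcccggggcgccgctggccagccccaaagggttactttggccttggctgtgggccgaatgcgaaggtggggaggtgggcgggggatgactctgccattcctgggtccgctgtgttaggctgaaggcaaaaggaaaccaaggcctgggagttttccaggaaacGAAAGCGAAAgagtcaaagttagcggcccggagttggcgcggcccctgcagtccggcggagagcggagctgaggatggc
TRIM34 (chr11:5624751-5625050, plus strand): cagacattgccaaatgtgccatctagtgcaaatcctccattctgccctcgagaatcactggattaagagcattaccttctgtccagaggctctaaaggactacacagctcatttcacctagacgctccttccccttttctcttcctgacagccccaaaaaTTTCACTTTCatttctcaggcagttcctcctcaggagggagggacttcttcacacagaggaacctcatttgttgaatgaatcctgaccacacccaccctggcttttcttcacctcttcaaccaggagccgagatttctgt
LGALS9 (chr17:27630938-27631237, plus strand): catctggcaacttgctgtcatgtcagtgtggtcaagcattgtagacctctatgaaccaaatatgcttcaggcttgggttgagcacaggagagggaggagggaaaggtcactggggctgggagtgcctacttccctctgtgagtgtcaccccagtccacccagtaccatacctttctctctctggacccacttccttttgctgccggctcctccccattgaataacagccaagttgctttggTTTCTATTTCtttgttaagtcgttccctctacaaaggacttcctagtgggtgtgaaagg

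TRIM5 encodes a restriction factor that recognises retroviral capsids, and TRIM34 a related protein from the same gene cluster. HERC5 is the ligase that attaches the ubiquitin-like protein ISG15, PARP14 is an ADP-ribosyltransferase, and LGALS9 encodes galectin-9, a ligand of the T cell receptor TIM-3. The core lay inside the member at TRIM5 and PARP14. At HERC5, TRIM34 and LGALS9 the member covered a different stretch of the window. HERC5 held 3 matches, of which the first and second overlap.

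In all, 44 promoter windows overlapped 42 members. The interferon response element core was found in 7 of the 44 (15.9%, 95% interval 6.64 to 30.1%), at ENKUR and ZNF774 besides the genes printed above. It was found in 502 of all 15811 windows, 1 per gene (3.18%), in 206 of 8033 (2.56%) on regions kept in both mutants, and in 45 of 1698 (2.65%) on kept regions with a WT pileup of at most 44, the highest among these promoter members. None of the 20 windows on regions absent from KO only held it. The related ETS-IRF core (GGAA, any 2 bases, GAAA), which can overlap the first, was found in 5 of 44 member windows (11.4%) and in 395 of all 15811. Of the other motifs searched on both strands, the E-box CAGGTG was in 13 of 44 (29.5%) against 19.9% of all windows, and the AP-1 site TGANTCA in 2 (4.55%) against 5.76%. The octamer ATGCAAAT was in 2 (4.55%) against 1.70%, and the cyclic AMP element TGACGTCA in 1 (2.27%) against 2.59%. The CTCF core CCCTC was in 36 (81.8%) against 76.6%, and the MEF2 site CTAAAAATA and the RUNX site TGTGGTT were in none of the 44, which allows up to 8.04%, against 0.335% and 3.55%. A match describes letters in the window and shows neither a bound site nor a cause. The 9 motifs were listed with results of these data known, and no test was run on them.

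TRIM5 was marked by a member of 1232 bp over its gene start, chr11:5684180-5685411 (GRCh38), with a WT pileup of 22. The KO region there had a pileup of 17, and the nearest JmjD-dead region was 549 kb away. HERC5 was marked next to its start by chr4:88456420-88456882, with 22 in WT, 13 in KO and a gap of 65.9 kb to JmjD-dead. PARP14 had 15 in WT and 13 in KO, with a gap of 11.3 kb. LGALS9 had 14 in both libraries and a gap of 43.5 kb, and TRIM34 14 in WT, 6 in KO and a gap of 609 kb. Pileups of different libraries are set side by side here, at different depths, and only the order within a list is comparable. All of these were therefore weak to intermediate regions of the WT list, ranked 24438 (TRIM5) to 35779 (LGALS9) of 69127.

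The WT values that chose the members were low. The −log10 q had a median of 7.46 and ran from 5.63 to 95.4. The pileup had a median of 14 (12 to 77), the fold over background a median of 5.58 and the length a median of 408 bp (146 to 3996). Members with a pileup of 12 to 15 numbered 1621 (71.3%), against 27.2% of all tested regions. Only 241 (10.6%) reached 20 and 36 (1.58%) reached 30. Membership was thus most frequent in the weakest class, at 16.2% of the 4053 regions with a pileup of 12. It was 7.23% at 16 to 19, 2.94% at 20 to 29, 0.524% at 30 to 49, and 3 of 12498 regions (0.024%) at 50 and over. Regions absent from KO only followed the same order, from 19.8% at 12 to 0.144% at 50 and over. The threshold fell inside this range: 657 members had exactly the lowest admitted −log10 q of 5.63 (pileup 12), the 3 nearest regions outside had 4.76 (pileup 11), and 4178 regions below the threshold showed the same pattern. The longest members measured 3668, 3893 and 3996 bp, and no region of 5000 bp or more showed the pattern.

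**Figure D1:**
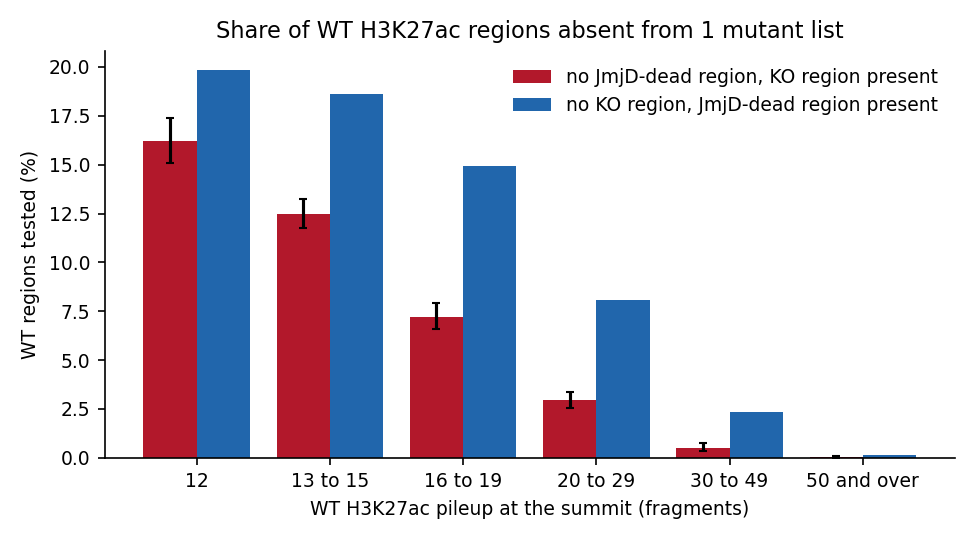
Share of tested WT H3K27ac regions (%) that were absent from 1 mutant list and present in the other, by WT pileup at the summit (fragments); bars are shares and the error bars on the red bars exact 95% intervals. Both patterns become rarer with WT pileup, and members fall from 16.2% at a pileup of 12 to 0.024% at 50 and over.

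How far the KO list kept these regions, and how far the JmjD-dead list lacked them, differed among members. The KO region had a −log10 q of at least 5 at 1291 members (56.8%) and covered at least 50% of the member at 1710 (75.2%). A JmjD-dead region lay within 100 bp of 90 members (3.96%) and within 1 kb of 970 (42.7%). The median gap was 1913 bp, and 144 members (6.34%) had no JmjD-dead region within 100 kb. In WT itself a separate region lay within 1 kb of 1462 members (64.3%). This was counted for members only, so it is not known to set them apart from other tested regions. A KO −log10 q of at least 5 together with no JmjD-dead region within 1 kb was found at 735 members (32.3%).

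**Figure D2:**
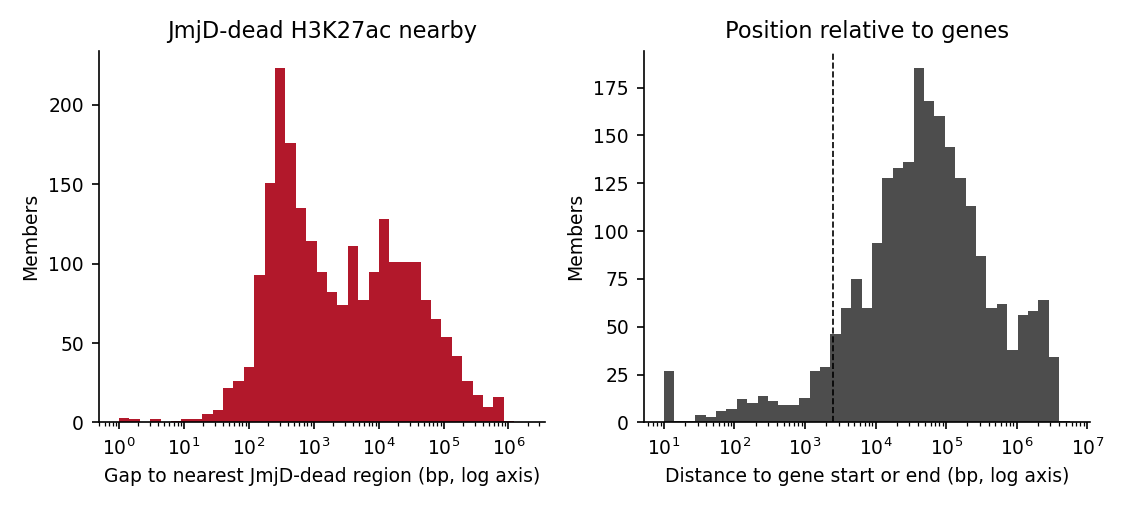
Numbers of members by the gap to the nearest JmjD-dead H3K27ac region (left, bp, log axis) and by the distance to the nearest protein-coding gene start, or end where no start is listed (right, bp, log axis, with distances under 10 bp drawn at 10). The left panel has a sharp peak of close neighbours, with 42.7% of members within 1 kb, and a broad group beyond; the dashed line on the right marks 2500 bp, beyond which 91.3% of members lie.

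The strongest members lay far from gene starts in most cases. BLID, an intronless gene for a protein with a BH3-like motif, was nearest to the highest ranked member, chr11:122152980-122154997, at 36.8 kb from a gene end. That region had a pileup of 77 in WT, while its KO region reached only 8, near the lowest listed value, and the nearest JmjD-dead region was 426 kb away. CDH4, which encodes a cadherin of cell-cell contacts, was nearest to chr20:60968521-60969543, 530 kb off, with 74 in WT and 21 in KO. SPIN1, a reader of methylated H3, was nearest to chr9:88303317-88305017 with 47 in WT and 9 in KO. At these 3 members the KO list kept a region, though one of low rank in 2 of them. SLC24A3, a sodium/calcium/potassium exchanger, held chr20:19466850-19468226 in its gene body, with 41 in WT and 53 in KO. Its nearest JmjD-dead region was only 0.334 kb away.

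LRMDA, a leucine-rich repeat gene linked to melanocyte differentiation, held 4 of the 10 highest ranked members and 6 members in all, of 12 tested regions nearest to it. From the first to the last member, 578 kb of its gene body (chr10:75738512-76316380), 7 regions were tested. The 6 members among them had WT pileups of 51, 44, 43, 39, 22 and 18, and KO pileups of 57, 31, 21, 17, 32 and 11 in the same order. The other tested region, with a WT pileup of 16, overlapped no region of either mutant list. The JmjD-dead list had 0 regions across the whole interval, and the nearest JmjD-dead region to any of these members was 132 kb away. The same interval held 13 H3K4me1 regions in WT and 0 in KO, and 6 KDM6A regions in WT and 0 in KO, the best of those with a −log10 q of 5.09. The tagged HA library had 2 regions there and the WT HA library 1. LRMDA was thus a wide interval where H3K27ac was listed in WT and KO, at 10 regions each, and H3K4me1 in WT alone. H3K4me1 in WT with none in KO was common, at 64.8% of all tested regions.

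GPC3, a cell-surface glypican, had 6 members of 6 regions tested in 6.36 kb inside the gene, at its end of lower coordinate, chrX:133537116-133543479. No start was placed for GPC3. WT pileups were 42, 28, 24, 15, 12 and 12. The KO list had 4 regions across the same bases, with pileups of 10 to 28, and the nearest JmjD-dead region was at least 829 kb away from each member. No H3K4me1 or KDM6A region of either genotype was listed in the interval, and the tagged HA library had 1 region. The members of GPC3 were therefore acetylated regions off the H3K4me1 lists, unlike those of LRMDA.

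The interval holding TRIM34 and TRIM5 also spans a cluster of olfactory receptor genes. There, 5 of 5 WT regions were members over 318 kb (chr11:5366957-5685411). KO had 4 regions, JmjD-dead 0. H3K4me1 had 4 regions in WT and 0 in KO, and KDM6A 7 in WT and 1 in KO, the best with a −log10 q of 4.13. None of these KDM6A regions overlapped a member. The members at TRIM5 and TRIM34 overlapped no H3K4me1 region of WT either. These 3 loci were picked after their values were seen. Pulling back to the genome, most members stood alone among the tested regions: 1729 were single, and 170 pairs, 45 triples and 14 longer runs of neighbouring members made up the rest. CDH7, another cadherin gene, had the longest run, 7 members in 8.86 kb at least 533972 bp from the gene.

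**Figure D3:**
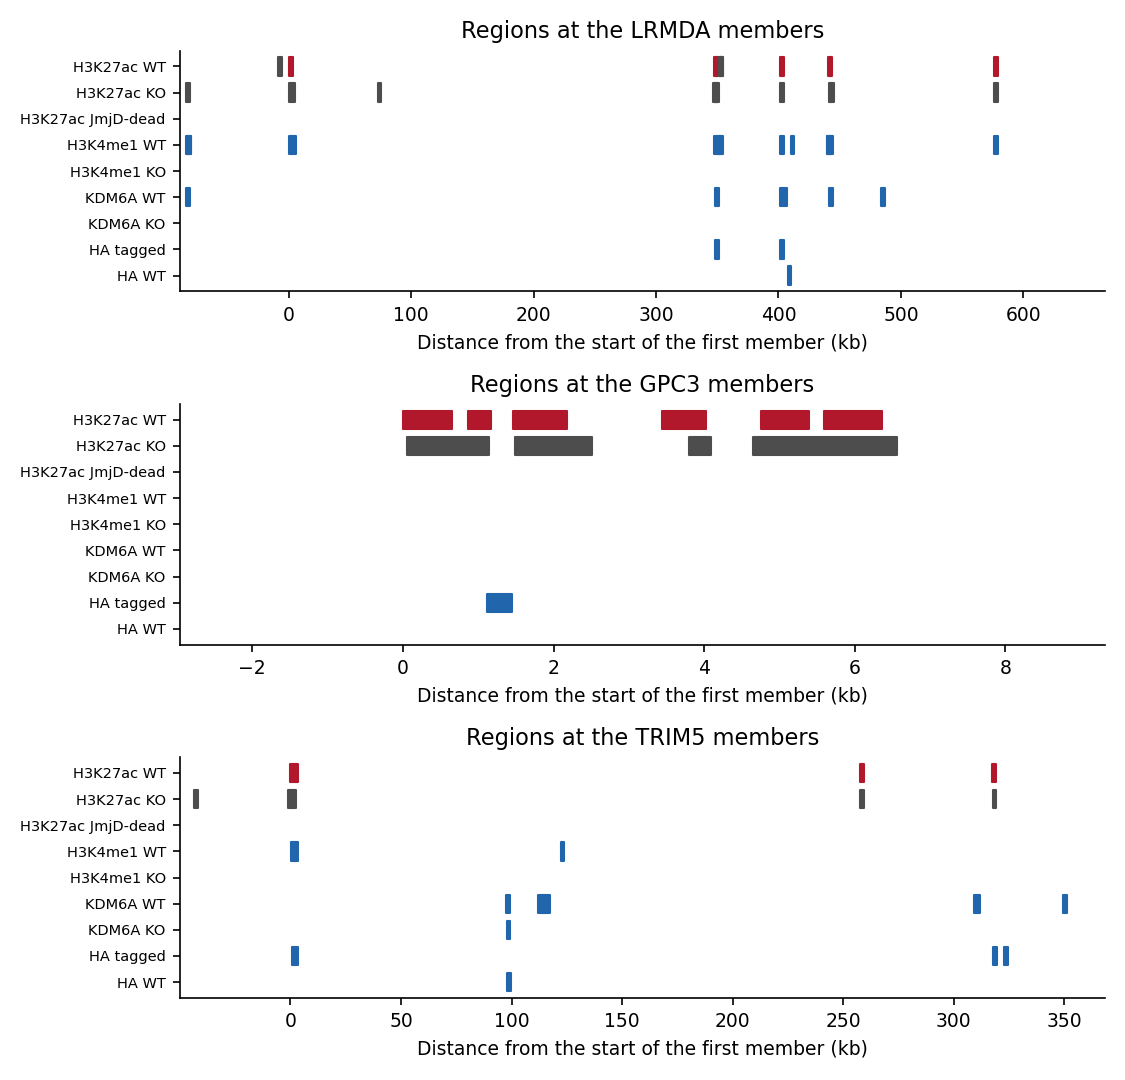
Regions of 9 lists around the members of LRMDA, GPC3 and TRIM5, by distance from the start of the first member (kb); red bars are members, grey bars other H3K27ac regions and blue bars regions of other lists, and short regions are widened to stay visible. The JmjD-dead H3K27ac line is empty at all 3 loci while the KO line is filled. H3K4me1 in KO is empty too, and so is H3K4me1 in WT at GPC3.

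Members at gene starts were few: 21 covered a protein-coding gene start and another 176 lay within 2.5 kb of one. Genes without a listed start enter here by both of their ends, and with placed starts alone the numbers were 18 and 131. TREML2, a receptor of the TREM family found on B cells and myeloid cells, had the highest ranked one, chr6:41199126-41202004, with a pileup of 44 in WT and 11 in KO. The KO region was 177 bp long, inside a member of 2879 bp. PELI2, a Pellino ubiquitin ligase of innate signalling, had 36 in WT and 27 in KO. COL4A3 and COL4A4, which encode chains of type IV collagen from a shared promoter, had 32 and 17. HRH2, the histamine H2 receptor, had 28 in WT and 40 in KO, and BCAR3, an adaptor protein, 27 and 15. STAB2, a scavenger receptor, had 27 and 15. No start was placed for AGAP1, an Arf GTPase-activating protein, whose member had 25 and 7 near 1 end of the gene. PRKCB, the protein kinase C that links the B cell receptor to NF-κB, had 25 and 10 at its start, and a further member of 36 and 10 in its gene body. VILL, a villin-like protein gene, had 24 and 23, and the zinc finger gene ZNF595 26 and 8. ZNF595 and STAB2 had a JmjD-dead region 0.046 and 0.388 kb away. The other 8 lacked one for at least 3.46 kb.

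The 42 members that overlapped a promoter window were mostly on H3K4me1 in WT, at 38 of 42, and 7 had an H3K4me1 region in KO. KDM6A regions of WT only were at 1, HA regions of the tagged line only at 3, and H3K27me3 regions of WT at 1, of KO at 1 and of JmjD-dead at 2. Their windows had a median GC content of 66.0%, the same as the windows on kept regions (66.0%). Windows with 5 or fewer CpG were 5 of 44 (11.4%, 3.79 to 24.6%), and LGALS9 (2 CpG) and TRIM34 (3 CpG) were among them. The share was 1.94% on kept regions, not matched on WT pileup, and 19.5% of all windows. It was not particular to members, with 7 of 20 (35%, 15.4 to 59.2%) on regions absent from KO only. Promoter members, whatever their CpG count, included ICOSLG, a costimulatory ligand of T cells, with 12 in WT and 19 in KO. STAT4, a transcription factor of cytokine signalling, had 14 and 10. YAP1, the effector of the Hippo pathway, had 13 and 27, and the ligand gene BMP4 14 and 50. BMP4 and STAT4 had a JmjD-dead region within 0.53 and 0.33 kb.

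The distal share was the first of the properties set against kept regions of like rank. Kept regions were stronger as a whole (median pileup 32 against 14), so their shares were weighted to the members' WT ranks in 20 bins, which brought the weighted median −log10 q to 7.46. Of the members, 91.3% (90.1 to 92.5%) were distal, meaning no gene start (or, where none is listed, gene end) within 2.5 kb, against 85.6% (84.9 to 86.3%) of rank-weighted kept regions and 95.7% of weighted regions absent from KO only. The median distance to a gene start was 53167 bp for members and 49258 bp for weighted kept regions. Members over 100 kb away numbered 829 (36.5%). Distal members inside gene bodies were 42.8% (40.8 to 44.9%) of all members against 36.4% (35.4 to 37.3%) of weighted kept regions, while those between genes were 48.5% against 49.2%. Members were thus more often distal than kept regions of the same rank, and this sign held under every alternative tried. Members were shorter than weighted kept regions (median 408 against 472 bp).

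KDM6A regions of WT that lacked a KO counterpart were found at 379 members (16.7%, 15.2 to 18.3%), against 18.9% (18.1 to 19.6%) of weighted kept regions and 21.5% (20.1 to 22.8%) of weighted regions absent from KO only. With KDM6A regions on the WT HA list left out, the shares were 11.5% (10.2 to 12.9%), 12.5% and 14.7%. The members' interval then includes the kept share. HA regions of the tagged line without a WT counterpart were found at 511 members (22.5%, 20.8 to 24.3%), against 22.6% (21.8 to 23.4%) and 26.4% (25.0 to 27.8%). Both were at 185 members (8.14%), against 8.44% of weighted kept regions. The sign of these differences turned with strength: among members with a −log10 q of at least 10, 26.3% (22.5 to 30.3%) held KDM6A and 40.8% (36.5 to 45.2%) HA, against 24.0% and 34.6% of weighted kept regions. The members' interval for KDM6A includes the kept share there, and so does the one for HA over all members. At a pileup of 20 or more, 72 of 241 members (29.9%, 24.2 to 36.1%) held KDM6A and 121 (50.2%, 43.7 to 56.7%) HA, against 27.1% and 39.8% of kept regions of that strength weighted to their ranks. The background lists, KDM6A in KO and HA in WT, were at 10.2% and 15.4% of members and at 15.8% and 23.1% of weighted kept regions. At a −log10 q of at least 10 they were at 7.06% and 8.63% of members and at 13.2% and 16.9% of weighted kept regions. At a pileup of 20 or more the shares were 6.22% and 4.56% against 11.5% and 14.9%. The part of this lower background in the differences was not tested. The KDM6A libraries held 11.9 M (WT) and 20.2 M (KO) tags and the HA libraries 25.3 M (tagged) and 16.6 M (WT). KDM6A of KARPAS was at 18.8% (17.2 to 20.5%) against 24.7%.

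Members that held both KDM6A and HA were led by BLID, CDH4, SPIN1, LRMDA (3 regions), TREML2, GHR, KLF12 and CLNK. At CDH4 the KDM6A region had a −log10 q of 16.7 and rank 8447 of its list, and the HA region 65.6 and rank 727. SPIN1 had the strongest KDM6A value of these, 22.2, and an HA value of 11.9. TREML2 had 11.7 for KDM6A and 33.1 for HA, in regions inside its member that did not cover the gene start. BLID had 6.09 and 34.4. Upstream of GHR, the growth hormone receptor, the values were 4.13 and 34.4, in the gene body of KLF12, a repressor of transcription, 3.23 and 26.7, and in that of CLNK, an adaptor of immune receptor signalling, 4.13 and 43.8. At the LRMDA members the KDM6A values were 3.23 and 5.09, the latter 1 region that touches 2 members. Values of the 2 antibodies come from separate lists and are not on 1 scale.

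H3K4me1 was listed at 1656 members in WT (72.9%, 71.0 to 74.7%), against 83.4% (82.6 to 84.2%) of weighted kept regions and 68.6% (67.1 to 70.2%) of weighted regions absent from KO only. In KO it was at 20.2% of members, against 27.7% and 19.3%. Most members with H3K4me1 in WT thus had none in KO although H3K27ac was listed there: this held for 57.6% (55.5 to 59.6%) of members and for 58.9% (57.9 to 59.9%) of weighted kept regions. H3K27me3, the mark KDM6A removes, was at 8.49% of members in WT cells, 6.95% in the KO and 16.9% (15.4 to 18.5%) in JmjD-dead cells, against 16.0%, 13.6% and 29.2% (28.3 to 30.1%) of weighted kept regions. H3K27me3 in JmjD-dead with none in WT was at 284 members (12.5%, 11.2 to 13.9%) and at 17.2% (16.4 to 17.9%) of weighted kept regions. Members thus held listed H3K27me3 regions of JmjD-dead cells less often than weighted kept regions did. This was not particular to members. Weighted regions absent from KO only, which have JmjD-dead H3K27ac, were at 21.96%, and weighted regions absent from both mutant lists at 12.59%. Whether the lower share is tied to the lack of JmjD-dead H3K27ac was not tested. The H3K27me3 libraries held 5.03 M (WT), 6.60 M (KO) and 10.4 M (JmjD-dead) fragments, and the H3K4me1 libraries 34.0 M (WT) and 25.6 M (KO). The KO library was deeper than WT with lower H3K27me3 shares, the JmjD-dead library deeper than both with higher shares, and the part of depth was not tested.

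Named examples with H3K27me3 in JmjD-dead and none in WT were few at high rank. RIMBP2, a synaptic scaffold gene, had a member of 159 bp with a pileup of 30 in WT and 27 in KO. CAMK1G, a calmodulin-dependent kinase, had 26 and 23, and FAM169A 24 and 12. B4GALNT3, a glycosyltransferase, had 23 and 20, and TMEM135 22 and 14. Only RIMBP2 of these 5 lacked a JmjD-dead H3K27ac region within 1 kb.

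**Figure D4:**
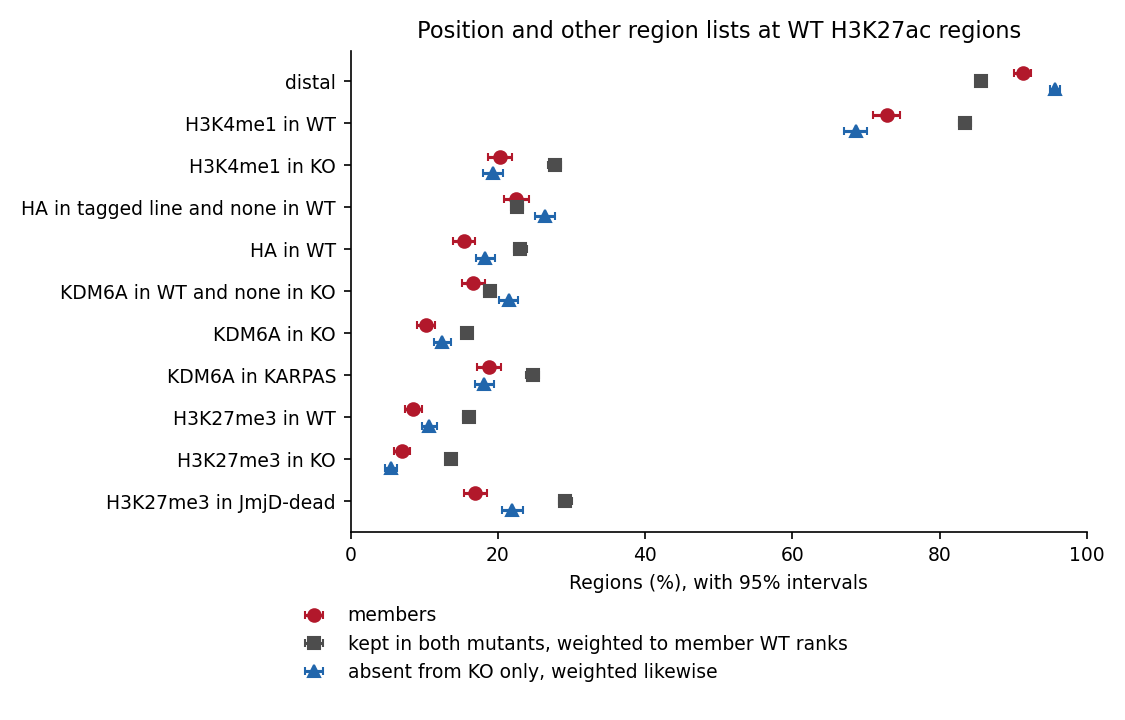
Share (%) of members, of kept regions and of regions absent from KO only that are distal or that overlap a region of another list. Kept regions and regions absent from KO only are both weighted to the members' WT ranks, and bars are 95% intervals. Members lie above kept regions for distal position, level with them for HA of the tagged line with none in WT (22.5% and 22.6%), and below them for both H3K4me1 lists and for H3K27me3 in every genotype.

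Part of these overlaps sat in a small set of genome bins. In 185 bins of 1 Mb the KDM6A antibody library of KO cells, labelled as lacking its target, had over 10 times its median number of regions, and 444 members (19.5%) lay there, against 24.1% of weighted kept regions. KDM6A of WT only was at 28.2% of these 444 and at 13.9% of the other 1829, and H3K27me3 in JmjD-dead at 58.1% and 6.89%. With KDM6A regions on the WT HA list left out, KDM6A of WT only was at 4.50% and 13.2%. HA regions of the tagged line were at 70.3% and 26.4%, and those of the WT HA list at 70.0% and 2.08%. Tagged-line HA regions without a WT counterpart were therefore less frequent in the dense bins, at 11.5% against 25.2%. Without these bins H3K27me3 in JmjD-dead was at 6.89% of members and 14.6% of weighted kept regions. These bins also supplied most genes with the longest lists of members, such as LINC02798 with 26 of 593 tested, all in such bins. XYLT1, the enzyme that starts glycosaminoglycan chains on proteoglycans, was different, with 11 members of 21 tested and none in such bins. Its strongest member, chr16:17238483-17239813, had 30 in WT and 28 in KO and held both KDM6A and HA.

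Members were unevenly spread over chromosomes. They made up 9.26% (8.16 to 10.5%) of tested regions on chromosome 3, 9.48% (8.06 to 11.1%) on chromosome 16 and 8.86% (6.93 to 11.1%) on chromosome 21. The other 20 chromosomes ranged from 2.89% (chromosome 19) to 6.62% (chromosome 22), and together had 4.75%. Regions absent from KO only were not more frequent on chromosomes 3 and 16, at 7.17% and 6.10%, nor on 21, at 8.47%, against 9.06% elsewhere. Regions absent from both mutant lists were at 8.12% on chromosome 3, 8.86% on 21 and 4.42% on 16, against 5.61% of all tested regions. At a WT pileup of 20 or more, members were 2.54% of tested regions on chromosome 3, 2.101% on 16 and 0.551% on 21. The other chromosomes ranged there from 0.234% (chromosome 19) to 2.22% (chromosome 10), so only chromosome 3 lay above them. The JmjD-dead list had 4.81% of its regions on chromosome 3, where WT had 5.72% and KO 5.57%. For chromosome 16 the shares were 3.33%, 3.68% and 4.12%, and for chromosome 21 1.90%, 2.02% and 1.99%. The input list of JmjD-dead also had a lower share of its regions on chromosome 3, 3.97% against 4.74% in WT and 4.99% in KO. On chromosome 16 it was lower too, at 3.57% against 4.40% and 4.08%. On chromosome 21 it was higher, at 4.84% against 4.50% and 3.601%. The part of these list and input shares in the result was not tested. Regions were called without a control, and the inputs held only 0.223 M to 0.725 M fragments, so DNA copy number was not measured. On chromosome 21, 37 of 67 members lay in the dense bins, and outside them members were 7.33% of tested regions.

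**Figure D5:**
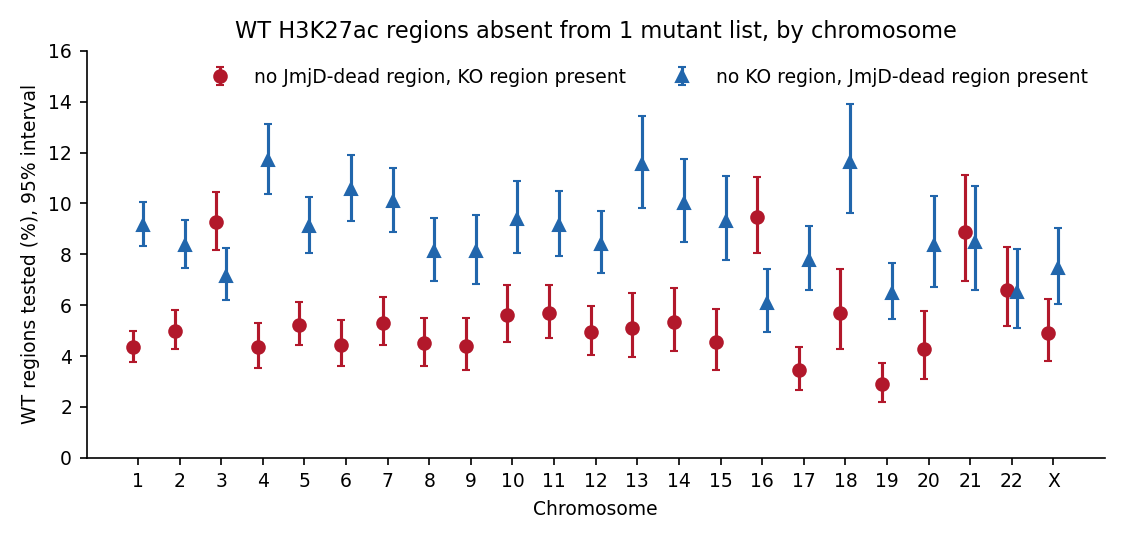
Share of tested WT H3K27ac regions (%) per chromosome that are members (red circles) or absent from KO only (blue triangles), with exact 95% intervals. Chromosomes 3, 16 and 21 stand above the rest for members, at 9.26%, 9.48% and 8.86%, and not for the other pattern.

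Members were nearest to 1478 protein-coding genes, 11.3% of the 13136 genes nearest to any tested region. Of these, 1105 had 1 member, 239 had 2 and 134 had 3 or more. The counts of the gene lists are read against that 11.3%, and against 5.26% for member regions. Regions absent from KO only are read against 8.83%. Several regions per gene raise a gene's chance of a member, so a gene share above the background is no finding by itself. A listed gene had a member when it was the nearest gene, at any distance, and pileups given at a gene are those of that member. The strongest member covered the start of TRIM5 and lay 1.97 kb from that of B2M. It lay 99.2 kb away at ITGA4, 180 kb at CD47 and 290 kb at PRDM1.

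Of the immune ligand and adhesion genes, 6 of 18 with a tested region had a member, from 10 of 83 regions (12.05%, 5.93 to 21.04%). ITGA4, an integrin chain of bone marrow homing, had 30 in WT and 15 in KO at its strongest member, with a JmjD-dead region 0.025 kb away. HHLA2, a B7 family ligand, had 24 and 12 with a gap of 3.23 kb, and CD47, the "do not eat me" signal to macrophages, 13 and 8 with a gap of 100.03 kb. LGALS9 was described above, and ICAM2 and BTLA were the others. Regions of this list absent from KO only numbered 12 (14.5%), against 8.83% of all tested regions, a difference that was not tested.

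Plasma cell identity genes had a member at 5 of 17: TNFRSF13B, the receptor TACI, IKZF3 and IKZF1, the Ikaros factors that immunomodulatory drugs degrade, CD27, and PRDM1, the master regulator of plasma cells. These were 6 of 98 regions (6.12%, 2.28 to 12.9%), close to the background. Another 16 (16.3%) were absent from KO only, against 8.83% of all tested regions, and that difference was not tested. All 4 named members of highest rank had a WT pileup of 13 or 14. The B cell list had a member at 1 of 10 genes, CIITA, which also stands on the MHC class II list as its master regulator. Its member, chr16:10870849-10872104 in the gene body, had 26 in WT and 13 in KO and lay 4.31 kb from a JmjD-dead region. MHC class I genes had 1 of 19, B2M, the light chain, with a JmjD-dead region 0.085 kb away. T and NK cell markers had 1 of 5 (CD2), and the epithelial and myeloid lists 0 of 8 and 0 of 3.

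Interferon-stimulated genes had a member at 3 of 21, among them TRIM5 and HERC5, from 3 of 39 regions (7.69%, 1.62 to 20.9%), and none absent from KO only. TRIM34 and PARP14 were not on that list and were noticed after the promoters were searched. The NF-κB list had 3 of 18 (PRKCB, TNFRSF13B and TNFAIP3, the A20 inhibitor) and 6 of 66 regions (9.09%). The JAK-STAT list had 3 of 21, both chains of the type I interferon receptor, IFNAR1 and IFNAR2, and the inhibitor SOCS1. WT pileups there were 16, 12 and 13, and KO pileups 7, 11 and 9. Over all 18 lists the intervals of the region shares include the background of 5.26%, apart from the immune ligand list, whose lower bound is 5.93%. Among 18 intervals of 95% a miss can arise by chance, and no correction was made for their number. The 10 member regions of that list included 3 at ITGA4 and 2 at HHLA2, and neighbouring regions are not independent. The background was also not matched on WT pileup, with which membership varied, so this exception is no finding by itself.

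Acetyltransferase, deacetylase and bromodomain genes had 5 of 20, with 6 of 93 regions (6.45%). BRD3, a reader of acetylated histones, had 18 in WT and 7 in KO, and CREBBP, itself a writer of H3K27ac, 13 and 13. The KDM6A, COMPASS and Polycomb list had 2 of 18, WDR5 (15 and 7) and EZH2 (12 and 7). Developmental regulators had 5 of 27, led by SOX9 at 27 in WT and 11 in KO and by OTX2 at 23 and 23, and HOX genes 3 of 16, HOXC11, HOXB3 and HOXD13. Myeloma drivers had 3 of 17 (MYC, MAF and CCND1) from 4 of 106 regions (3.77%), housekeeping genes 1 of 15 and the BCL2 family 0 of 15. The strongest members of MYC, MAF and CCND1 lay 228, 80.8 and 61.5 kb from the gene start or end. At HOXD13, CCND1 and IKZF3 a JmjD-dead region lay within 0.11 kb, whereas at the strongest members of MAF, SOX9 and TNFAIP3 none lay within 45 kb.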

How the data were processed

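The 16 human region lists, 1 library per group, were used; the 4 mouse lists were not. Per the submitters' processing notes, Trimmomatic, Bowtie2 and MACS2 2.1.2 belonged to the processing and GRCh38 was the build, with no settings given. The file headers give MACS 2.2.7.1 (H3K27ac, H3K27me3, input) or 2.1.1.20160309 (KDM6A, HA, H3K4me1). Per the file headers, each library was called alone at a q-value of 0.05, without a control and with the local background switched off. The deposited values of a region are its pileup signal, its fold enrichment (ratio) and its −log10 p and −log10 q, all the authors' own; they rank or filter regions within a list only. The total fragments per library, from the file headers, set how weak a region can be called.

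Entries with the same coordinates were merged into 1 region. Overlap was at least 1 bp. Gene starts came from the RefSeq GRCh38.p14 promoter table for 15811 of 19970 protein-coding genes, the first one listed per gene, and both gene ends were used for the rest. Kept regions were weighted to the members' WT ranks in 20 bins of equal member count. With 1 library per group no test was possible. The genes named were the nearest genes of the 10 members of highest WT rank, of the 10 highest at a gene start, of the 10 highest with both KDM6A and HA, of the 5 highest with H3K27me3 in JmjD-dead only, the 10 genes with most members and up to 4 genes per list, some of which are not reported here. Others were chosen after their values were seen. The members, lists and motifs were chosen with earlier results of these data known. Alternatives changed the q minimum, overlap, list length, gap, input, length, chromosomes, gene start window and weighting. Computation was in Python 3.11.15 (pandas 2.3.3, numpy 2.4.6, matplotlib 3.10.9; intervals from scipy 1.17.1). The overlap and weighting functions returned the seeded answer in 5 of 5 steps on simulated data.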

Additional observations from a re-analysis of the deposited data

How the results depend on the processing

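Values are member share minus weighted kept share in percentage points. The distal excess (5.73) and the deficits of H3K4me1 (-10.6) and of H3K27me3 in JmjD-dead (-12.3) kept their sign under every alternative run, and the cause of the moves was not tested. With a −log10 q of at least 10 there were 510 members, and the differences were 9.07 (distal), 2.28 (KDM6A), 6.20 (HA), -8.00 (H3K4me1) and -14.9 (H3K27me3). With 50% overlap there were 3518 members, with 7.74, 0.368, 3.87, -5.87 and -7.72 in the same order. With no JmjD-dead region within 1 kb there were 1303, with 7.33 (distal), 2.92 (HA) and -15.4 (H3K27me3). The KDM6A difference (-2.21) kept its sign in 10 of 12 alternatives, that of 1 kb included, and turned with the q minimum and 50% overlap. The HA difference (-0.119) turned in 7 of 11. It also turned with equal list lengths (0.0596), without chromosomes 3, 16 and 21 (0.127), with 1 kept region per member (0.572) and with weighting on rank within length (0.455). That last weighting gave 7.78 for distal. H3K27me3 was -10.6 without regions on input and -7.39 with 1 kept region per member. Without the dense bins the values were 7.37 (distal), -2.57 (HA) and -7.70 (H3K27me3). Distal was 4.88 with placed gene starts alone, chromosome 8 left out, and 5.74 with every listed start. These 2 alternatives and leaving out the dense bins or chromosomes 3, 16 and 21 were chosen after seeing the data. No paired analysis was possible because each group has 1 library, and no replicate could be left out. The lowest pileup listed limits which weak regions can be seen as kept.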
